A study of Mus musculus with 4 samples.

Results

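NIH/3T3 is a fibroblast line established from mouse embryos, and its cells were examined here in the matrix split by sample from a CapSeq split-pool single-cell RNA library. A barcode was taken as a cell when it held at least 1000 unique molecular identifiers (UMIs) and at most 20% of them in genes of the mitochondrial genome. This gave 2037 NIH/3T3 cells of 6497 cells in all 3 lines, beside 2323 cells of N2a, a neuroblastoma line, and 2137 of mESC, embryonic stem cells of the E14TG2a line. The lines carried no engineered change in the labels. NIH/3T3 and N2a were grown in DMEM with 10% FBS, and mESC on gelatin with 15% FBS, LIF, CHIR99021 and PD0325901, so the line and these agents cannot be told apart between mESC and NIH/3T3. Each line is 1 sample of a shared library, told from the others by the first-round barcodes (BC1) of its own 32 wells of the plate, NIH/3T3 in columns 5 to 8. There are no replicates, so no test between lines was made. The 95% intervals given are exact Poisson intervals on summed UMIs and cover counting error only.

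Fibroblasts build and remodel the connective tissue matrix. They secrete collagen chains that are folded in the endoplasmic reticulum, trimmed outside the cell and cross-linked by lysyl oxidases, and they sense that matrix through integrins, CD44 and the actin cytoskeleton. Their identity is held by mesenchymal transcription factors such as Prrx1, Twist and Runx proteins, and their flat membranes are rich in caveolae, small pits built from caveolins and cavins.

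The NIH/3T3 matrix held 13505027 UMIs, of which 11697865 (86.6%) were in the 2037 cells. A cell had a median of 4863 UMIs (interquartile range 2894 to 7436, highest 26868) and 2674 detected genes (1857 to 3526). The median share of mitochondrial UMIs was 2.47%, and that of ribosomal protein UMIs 9.50%. The median depth was 6185 UMIs in N2a cells and 4803 in mESC. Of the 2052 barcodes with at least 1000 UMIs, 15 were left out for mitochondrial content. The shallowest cells held 1000 UMIs and the deepest barcodes left out on depth held 997 and 992, while the highest mitochondrial share kept was 19.3% and the lowest left out lay just above 20%. No cell barcode was shared between the matrices of the lines (0 barcodes). The 32 BC1 wells held 33 to 96 cells each, with a median of 67, and their median depth ran from 2851 to 7558 UMIs per cell. Doublets were not called, and results without the 5% of cells with the most UMIs are given at the end.

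All 5 identity genes were at least 4-fold higher in NIH/3T3 cells than in both other lines. Levels are CPM, the UMIs of a gene summed over cells and scaled to the same library total, and ratios between lines are of CPM + 1, which understates the difference of genes that are near 0 elsewhere. Prrx1, a homeobox factor of limb and craniofacial mesenchyme, was at 622 CPM (608 to 637) in NIH/3T3, 0.501 in N2a and 0.812 in mESC, a ratio of 344 to the higher of the other lines. Sema5a, a membrane-bound semaphorin guidance protein, was at 915 CPM (898 to 932) against 0.668 and 2.11. Il1rl1, the receptor of interleukin 33, was at 596 CPM (582 to 610) against 0.557 and 1.22. Col1a2, the second chain of type I collagen, was at 461 CPM (448 to 473) against 0.780 and 0.893. Cav1, the main structural protein of caveolae, was at 233 CPM (225 to 242) against 0.446 and 0.568. These genes were chosen with earlier results of these data known, so their levels describe the cells and are no independent check of the label. At least 1 UMI was found for Col1a2 in 79.3% of NIH/3T3 cells and 0.603% of N2a cells, and for Sema5a in 89.1% and 0.517%, and the N2a cells were deeper. Whether the few UMIs in N2a were free RNA or made there was not tested. The 5 genes lie on chromosomes 1 (Prrx1, Il1rl1), 6 (Col1a2, Cav1) and 15 (Sema5a).

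The same 5 genes were high in every well. Col1a2 ran from 347 to 580 CPM over the 32 wells, Cav1 from 179 to 294, Prrx1 from 401 to 753, Sema5a from 721 to 1194 and Il1rl1 from 398 to 838. No well came near the level of either other line. The labels name no separate cultures for the wells, so they are not replicates, and their spread also holds which cells fell into each well.

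**Figure D1:**
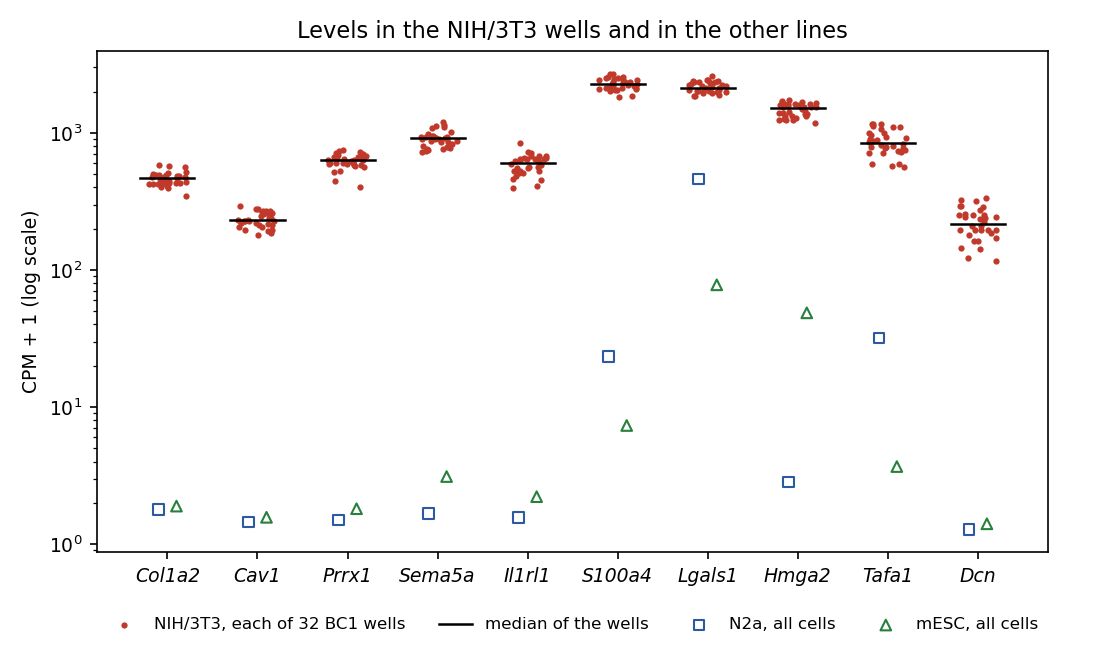
Levels of 10 genes in NIH/3T3 cells of each of the 32 BC1 wells (red points, with the median as a black line) and in all cells of N2a (blue squares) and mESC (green triangles), as CPM + 1 on a log axis. Every NIH/3T3 well lies above both other lines for each gene shown, with the closest other line at 459 CPM for Lgals1, and Dcn has the widest spread over wells relative to its median, from 115 to 334 CPM.

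The most abundant transcripts were mostly those of every growing cell. The 20 genes with the highest CPM held 5.62% of all UMIs, and the top 100 held 16.3%, against 14.6% in N2a and 15.7% in mESC. Malat1, a long noncoding RNA retained in the nucleus, led on the CPM scale at 6891 CPM (2127 in N2a and 4656 in mESC). Next came 7 mitochondrial genes, from mt-Atp6 at 4215 CPM and mt-Co1 at 3620 CPM to mt-Nd2 at 2539 CPM, interspersed with Rpl6, and the list also held the ribosomal protein genes Rps29, Rps12 and Rpl23. Prothymosin Ptma (2536 CPM), beta-actin Actb (2487 CPM), the elongation factor Eef1a1 (2390 CPM), nucleophosmin Npm1 (2325 CPM), the Mediator kinase Cdk8 (2174 CPM) and the chaperone Hsp90ab1 (2168 CPM) were the other genes of this list that did not differ 4-fold from both lines.

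Of these 20 genes, 2 were at least 4-fold higher than in both other lines. S100a4, a calcium-binding protein also called fibroblast-specific protein, was at 2247 CPM (2220 to 2275) against 22.3 in N2a and 6.33 in mESC, and 1835 to 2707 CPM over the wells. Lgals1, the galactoside-binding galectin 1, was at 2137 CPM against 459 and 76.9. When CPM were divided by the kilobases of annotated exon, 11 of the 20 genes stayed among the top 20. On that scale S100a4 (2475 CPM per kb) ranked at 9 and Lgals1 (1264 CPM per kb) at 16, while Malat1 moved to 31 and Cdk8 to 191. Ribosomal protein genes together took 9.42% of the UMIs of NIH/3T3 cells, 7.18% of N2a and 8.26% of mESC.

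Across the genome, 11366 genes had at least 10 CPM in at least 1 line. Of these, 602 genes (5.30%) were at least 4-fold higher in NIH/3T3 than in both other lines and 481 (4.23%) at least 4-fold lower, in both cases on the CPM + 1 scale. With 5 in place of 1, the counts were 430 and 201. Of the higher genes 504 and of the lower genes 462 were protein coding. The median log2 ratio of NIH/3T3 to the mean of the other lines was -0.11 over all tested genes. There were 317 higher genes with at least 50 CPM in NIH/3T3.

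**Figure D2:**
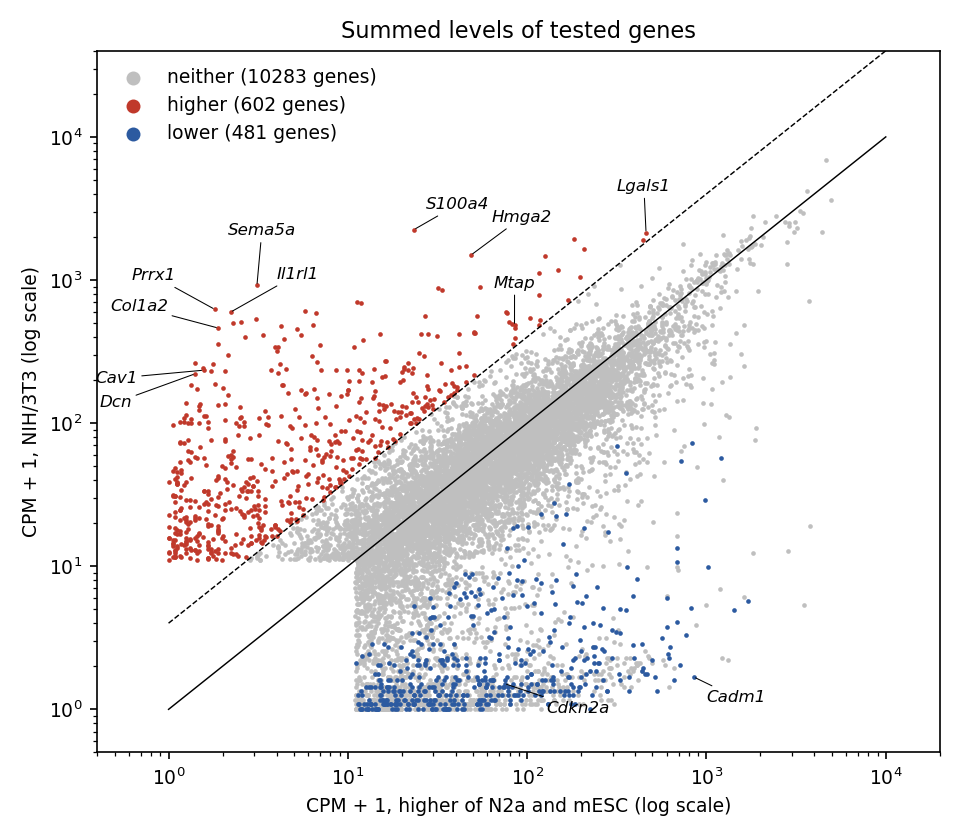
Level of each of the 11366 tested genes in NIH/3T3 against the higher of N2a and mESC, as CPM + 1 on log axes. The solid line marks equal levels and the dashed line a 4-fold higher level in NIH/3T3. The 602 higher genes are red, the 481 lower genes blue, and Sema5a, Prrx1 and S100a4 lie far above the dashed line, while Cadm1 and Cdkn2a lie near the bottom.

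Among genes with at least 50 CPM in NIH/3T3, the 20 with the largest ratio to the higher other line were led by the identity genes Prrx1, Sema5a, Il1rl1 and Col1a2, with Cav1 also among them. The identity genes were chosen with earlier results of these data known, so their rank is no separate finding. Genes of the extracellular matrix made up much of the rest. Col4a6 and Col4a5, a pair of basement membrane collagen chains, were at 501 CPM (488 to 514) and 511 CPM (498 to 524), each at or below 1.54 CPM in the other lines. Their starts have 1281 bases between them on the X chromosome and are transcribed away from each other. Col8a1 (261 CPM) encodes a short-chain collagen, and Col6a3 (173 CPM) a chain of the beaded filaments of type VI collagen. Dcn (220 CPM) encodes decorin, a small proteoglycan that binds collagen fibrils, and Efemp1 (411 CPM) encodes fibulin 3. Lox (185 CPM) encodes lysyl oxidase, which cross-links collagen and elastin, and Csgalnact1 (476 CPM) starts chondroitin sulfate chains. Each of these genes was at or below 3.25 CPM in both other lines.

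The surface and signalling genes of the same 20 included Cd44 (356 CPM), the hyaluronan receptor, Tm4sf1 (397 CPM), a tetraspanin-like membrane protein, and Pla2g4a (232 CPM), the cytosolic phospholipase that frees arachidonic acid. A further 3 genes were long noncoding RNAs, Gm10701 (536 CPM), Gm49890 (296 CPM) and Wincr1 (258 CPM). The smallest ratio in this group was 112, for Csgalnact1.

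Promoter sequences are shown for S100a4, Prrx1 and Efemp1, abundant or line-enriched genes that each held a match to a different searched motif, and for the divergent Col4a5 and Col4a6 pair, which were both high. They are the 250 bases before the transcript start in RefSeq on GRCm38.p6, read 5′ to 3′ on the gene's strand, with matches in capitals. The positions are chr3:90603520-90603769 (plus strand) for S100a4, chr1:163313651-163313900 (minus strand) for Prrx1, chr11:28852955-28853204 (plus strand) for Efemp1, chrX:141475169-141475418 (plus strand) for Col4a5 and chrX:141474077-141474326 (minus strand) for Col4a6. Of the 17 identity, enriched or abundant genes looked up in the table, 6 had a match in such a window and the others, among them Col4a5 and Col4a6, had none. The capitals mark a TATAAA match that begins 31 bases before the start in S100a4, a GGAATG match 180 bases before it in Prrx1 and a TGAATCA match to TGANTCA 154 bases before it in Efemp1.
S100a4: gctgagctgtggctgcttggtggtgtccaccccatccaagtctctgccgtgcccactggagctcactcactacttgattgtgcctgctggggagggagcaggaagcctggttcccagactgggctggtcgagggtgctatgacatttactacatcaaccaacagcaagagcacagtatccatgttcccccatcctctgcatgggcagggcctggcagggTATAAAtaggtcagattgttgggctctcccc
Prrx1: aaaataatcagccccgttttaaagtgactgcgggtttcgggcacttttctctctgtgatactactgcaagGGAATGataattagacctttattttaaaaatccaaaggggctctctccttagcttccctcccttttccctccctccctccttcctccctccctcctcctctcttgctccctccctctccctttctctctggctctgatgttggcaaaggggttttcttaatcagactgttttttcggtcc
Efemp1: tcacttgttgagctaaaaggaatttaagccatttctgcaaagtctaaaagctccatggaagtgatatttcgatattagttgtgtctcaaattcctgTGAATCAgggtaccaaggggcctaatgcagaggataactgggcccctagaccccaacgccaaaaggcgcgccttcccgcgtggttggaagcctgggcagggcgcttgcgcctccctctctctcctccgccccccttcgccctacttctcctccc
Col4a5: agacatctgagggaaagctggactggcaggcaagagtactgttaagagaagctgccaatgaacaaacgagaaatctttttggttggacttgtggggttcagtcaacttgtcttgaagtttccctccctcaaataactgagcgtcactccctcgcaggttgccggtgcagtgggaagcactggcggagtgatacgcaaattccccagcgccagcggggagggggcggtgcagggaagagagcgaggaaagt
Col4a6: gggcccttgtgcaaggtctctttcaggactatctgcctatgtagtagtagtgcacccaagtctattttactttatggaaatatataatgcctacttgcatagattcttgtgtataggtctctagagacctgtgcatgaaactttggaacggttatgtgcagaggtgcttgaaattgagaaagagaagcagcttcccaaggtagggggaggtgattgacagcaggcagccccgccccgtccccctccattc

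The motifs were counted in the full promoter windows, 250 bases before to 50 after the start, of the RefSeq table, on both strands. The motifs were TGANTCA, bound by AP-1 factors such as Fosl1, GGAATG, bound by TEAD factors, and TATAAA, the TATA box, and the 3 were searched independently. The 602 higher genes had 585 promoters for 434 matched genes. TGANTCA was in 10.9% of them, in 7.81% of all 32851 promoters of the table, in 5.01% of the promoters of tested genes and in 3.75% of those of the lower genes. GGAATG was in 16.6%, 14.7%, 12.0% and 12.2% in the same order, and TATAAA in 11.5%, 13.6%, 7.11% and 7.89%. A match is a description of these letters and not of a bound site.

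All 11 tested collagens were higher than in both other lines, beside 5.30% of all tested genes. The median log2 ratio of the collagens to the mean of the other lines was 4.97. The summed level of the 12 listed collagens was 1503 CPM in NIH/3T3, 14.3 CPM in N2a and 43.9 CPM in mESC. A gene was tested at 10 CPM or more in any line, so most of the 11 were tested through NIH/3T3 alone. Their share of higher genes thus follows in part from this limit. The same limit bears on members of the later lists that reach 10 CPM only in NIH/3T3. Apart from Col1a2, Col8a1 and Col6a3, the values were 134 CPM for Col4a2 and 131 CPM for Col4a1, each about 8-fold above mESC (ratios of 8.59 and 8.12), 95.0 CPM for Col6a1, 94.1 CPM for Col5a2, 46.2 CPM for Col5a1, 39.9 CPM for Col3a1, 38.8 CPM for Col6a2 and 28.6 CPM for Col1a1. Type I collagen is assembled from Col1a1 and Col1a2 chains, and the UMIs of the former were detected in 11.7% of cells and those of the latter in 79.3%. Col12a1 was below 10 CPM in all lines, at 1.03 CPM in NIH/3T3.

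Of the 16 tested genes for matrix glycoproteins and proteoglycans, 7 were higher and none lower (0 genes). Of all tested genes, 5.30% were higher and 4.23% lower, so none lower of 16 is near the general share. The higher genes included Vcan, the large proteoglycan versican, at 420 CPM against 1.17 and 27.1, Cd44 and Dcn as above, and Lamb1, a laminin chain, at 248 CPM against 0.167 and 19.6. Sparc, a collagen chaperone of the matrix, was at 799 CPM against 155 and 219, a ratio of 3.64 that missed the 4-fold limit. Fibronectin Fn1 was at 411 CPM against 642 in mESC. Postn and Has2 had no UMI in NIH/3T3 cells, where the limit of 3 UMIs set for a count of 0 is 0.256 CPM.

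Collagen processing and matrix turnover showed no lower gene (0 genes), which is near the share of 4.23% over all tested genes. Of 11 tested processing genes, 5 were higher, beside 5.30% of all tested genes. The 5 included Lox, the collagen chaperone Serpinh1 (236 CPM, ratio 6.29), the propeptide enhancer Pcolce (187 CPM, ratio 5.40), Loxl1 (52.8 CPM, ratio 12.2) and Loxl3 (30.0 CPM). The proline hydroxylase P4ha1 was at 192 CPM with a ratio of 2.91. Beside 5.30% of all tested genes, 8 of 10 tested matrix proteases and inhibitors were higher. They included the lysosomal protease cathepsin L, Ctsl, at 1115 CPM against 41.6 and 116, the inhibitors Timp2 (419 CPM, ratio 10.0) and Timp3 (292 CPM, ratio 46.6), the plasminogen activator receptor Plaur (90.8 CPM) and the membrane-bound collagenase Mmp14 (81.3 CPM, ratio 9.72). Timp1 was at 151 CPM with a ratio of 3.24, and Mmp3, Mmp10 and Mmp13 had no UMI.

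The caveolae were represented by both structural families. Of 7 tested genes, 5 were higher, beside 5.30% of all tested genes. The 5 were Cav1, Cav2 (101 CPM, ratio 83.1), Cavin3 (182 CPM, ratio 42.4), Cavin1 (158 CPM, ratio 27.5) and Ehd2, an ATPase at the caveolar neck (74.5 CPM, ratio 9.62). Cavin2 was at 158 CPM against 63.6 in N2a, and Pacsin2, a membrane-bending protein, at 179 CPM against 245.

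Of 17 tested genes for stress fibres and contraction, 1 was higher, a share near the 5.30% of all tested genes. This was Fhl2, a LIM protein that binds actin regulators (49.7 CPM, ratio 31.4). Alpha-actinin Actn1 (355 CPM), myosin heavy chain Myh9 (331 CPM), vinculin Vcl (321 CPM), tropomyosin Tpm1 (277 CPM) and filamin Flna (223 CPM) had ratios between 1.02 and 3.55 to the higher other line. The smooth muscle and myofibroblast genes Acta2 (0.171 CPM), Cnn1 (0.171 CPM), Myl9 (0.256 CPM), Actg2 (0.256 CPM) and Tagln (0.427 CPM) were at or near 0. None of these 5 genes overlapped another annotated gene on its strand (0 genes).

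Of 19 tested mesenchymal transcription factors, 11 were higher and none lower (0 genes), with a median log2 ratio of 3.41. The shares over all tested genes were 5.30% higher and 4.23% lower, and none lower of 19 is near the latter. Hmga2, a chromatin protein of embryonic and transformed cells, was at 1494 CPM (1472 to 1517) against 1.84 in N2a and 47.6 in mESC. Runx1 was at 342 CPM (ratio 84.0), Runx2, the master factor of bone, at 265 CPM (ratio 39.5), Osr1 at 108 CPM (ratio 89.5) and Twist2 at 106 CPM (ratio 80.2). Tbx15, Twist1, Foxc1, Foxc2 and Osr2 were higher at 17.8 to 71.9 CPM. Zeb1, a repressor of epithelial genes, was at 256 CPM against 203 and 172. Tcf21 and Scx, factors of other stromal lineages and of tendon, had no UMI.

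Ligands and receptors were next. Of 19 tested secreted factors, 11 were higher and 1 lower, beside 5.30% and 4.23% of all tested genes. The count of 1 lower is near the latter share. Among the higher genes, Igfbp6, which binds insulin-like growth factor 2, was at 233 CPM (ratio 62.7), Fgf7, an epithelial growth factor made by stroma, at 119 CPM (ratio 9.49), Csf1, the macrophage growth factor, at 100 CPM (ratio 8.25), and the chemokines Ccl7 and Ccl2 at 98.7 CPM and 62.4 CPM, each at or below 0.334 CPM elsewhere. The proliferin genes Prl2c3 (40.9 CPM) and Prl2c2 (37.6 CPM) are near-identical copies whose reads may be split between them, so their separate levels are uncertain. Tgfb2 was lower at 2.91 CPM against 253 and 16.3. Osteopontin, Spp1, was the most abundant gene of this list at 464 CPM, against 795 in mESC. Cxcl12 and Grem1 had no UMI.

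Of 19 tested growth factor and cytokine receptors, 9 were higher and none lower (0 genes), beside 5.30% and 4.23% of all tested genes. None lower of 19 is near the latter share. Besides Il1rl1, the higher genes included the receptor tyrosine kinases Axl (272 CPM, ratio 17.0), Met (260 CPM, ratio 62.6) and Pdgfra (48.1 CPM, ratio 20.6). Also higher were the receptors of growth hormone, Ghr (126 CPM), and oncostatin M, Osmr, and the interleukin 1 receptor Il1r1 (14.8 CPM). The TGF-beta receptors Tgfbr3 (147 CPM) and Tgfbr2 (64.5 CPM) completed the 9. Igf1r was at 476 CPM against 565 in N2a, and Ddr2, a collagen receptor, at 316 CPM against 222. Of 14 tested adhesion receptors, the tetraspanin Cd63 (1053 CPM, ratio 5.36) and Vcam1 (72.7 CPM) were higher, while Itgb3 (0.342 CPM) and Eng (2.22 CPM) were lower, beside 5.30% and 4.23% of all tested genes. The integrin chain Itgb1 was at 642 CPM against 620 in N2a.

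Of 17 tested serum response and YAP targets, 3 were higher and 1 lower, beside 5.30% and 4.23% of all tested genes. Fosl1, an AP-1 subunit, was at 188 CPM (ratio 104), Crim1 at 155 CPM (ratio 4.17) and Ankrd1 at 71.6 CPM, with 0.0557 and 0.162 CPM in the other lines. Ccn1 and Ccn2, the classic matricellular targets, were at 34.7 CPM and 19.7 CPM with ratios of 2.80 and 1.01. Of the immediate early genes, the AP-1 subunit Jun was the most abundant of the list at 232 CPM, against 122 in N2a and 12.4 in mESC. Fos was at 12.1 CPM and Egr1 at 30.9 CPM, against 38.0 and 202 in N2a, and Atf3 was lower at 0.0855 CPM. Of 12 tested stress response genes none was higher (0 genes) and Gdf15 was lower, counts near the shares over all tested genes (5.30% and 4.23%). The chaperone Hspa5 was the most abundant at 678 CPM.

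**Figure D3:**
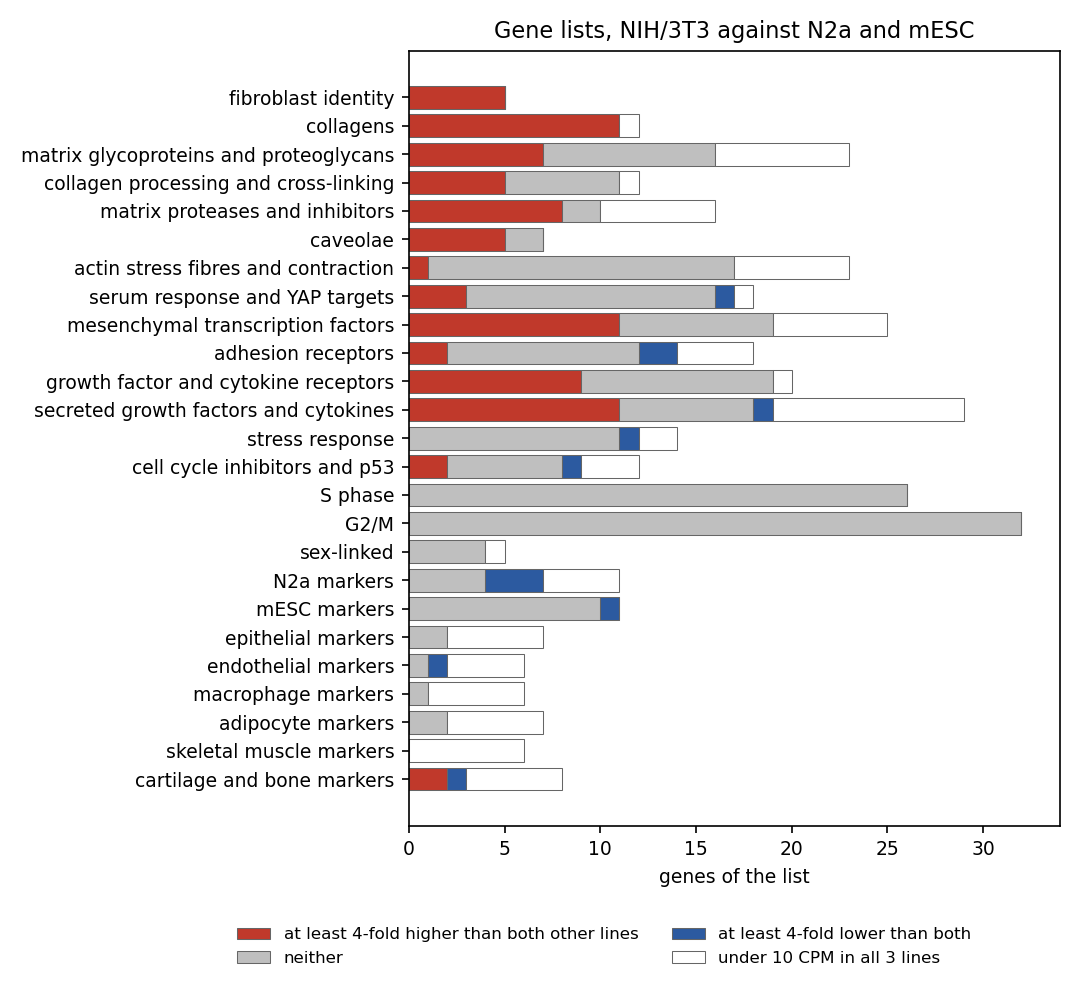
Number of genes per list that were at least 4-fold higher in NIH/3T3 than in both other lines (red), at least 4-fold lower (blue), neither (grey) or under 10 CPM in all 3 lines (white). All 11 tested collagens are red, while all 26 S phase and 32 G2/M genes are grey.

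Markers of N2a, mESC and 5 other cell types were at or near 0. So were most of those of cartilage and bone, except Runx2 and Sox9. The 11 N2a markers summed to 9.57 CPM against 1406 in N2a cells, with 3 of them without a UMI and Gata2 the most abundant at 4.19 CPM. The 11 mESC markers summed to 19.3 CPM against 6439 in mESC, 58.8% of it from Dppa5a, and all of them had a UMI. Epithelial markers summed to 5.30 CPM, endothelial to 8.21, macrophage to 7.27, adipocyte to 1.80 and skeletal muscle to 4.02 CPM, and Epcam, Ptprc, Pparg and Myod1 had no UMI. The cartilage and bone list summed to 416 CPM, against 49.4 in N2a and 233 in mESC, with 63.8% of it from Runx2. In it, Runx2 and Sox9 (150 CPM, ratio 4.18) were higher and the phosphatase Alpl, without a UMI in NIH/3T3 and at 224 CPM in mESC, was lower. Sp7 was at 0.171 CPM, Col2a1 and Acan at 0.0855 CPM each, and Bglap and Ibsp had no UMI.

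The lower genes were read from those with at least 50 CPM in both other lines. Cadm1, a cell adhesion protein of the immunoglobulin family, was at 0.684 CPM (0.295 to 1.35) in NIH/3T3 against 848 in N2a and 362 in mESC, a ratio of 216 to the lower of them. Tenm3, a teneurin, was at 3.93 CPM against 1430 and 543, and Akap12, a scaffold of protein kinase A, at 2.31 CPM against 302 and 773. Zfp704, Chchd10, Bend4, Peg10, St6galnac3, Ryr2 and Chd7 were at 0.256 to 2.48 CPM, with ratios from 105 down to 60.2. Peg10 is an imprinted gene derived from a retrotransposon, Ryr2 a calcium release channel and Chd7 a chromatin remodeller. The lower genes spanned a median of 58.7 kb of genome, the higher genes 31.5 kb and all tested genes 30.7 kb.

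Levels changed sharply along chromosome 4. The interval from Gm49890 to Gm12610 (chr4:88828091-89452672, GRCm39) held 5 higher and 2 lower genes, beside 5.30% and 4.23% of all tested genes. Both of its ends are called genes, so these counts depend on where it was cut. Gm49890 (296 CPM), Gm49891 (10.7 CPM), Wincr1 (258 CPM) and Gm12602 (62.1 CPM), 4 long noncoding RNA genes, were at or below 1.14 CPM in both other lines. Mtap, an enzyme that recycles methylthioadenosine, was at 481 CPM (468 to 493) against 83.9 and 84.0. The next gene, the noncoding Gm12606, had no UMI and was at 1.00 CPM in N2a and 0.243 in mESC. Beyond it, Cdkn2a, which encodes the p16 and p19 inhibitors of the cell cycle, was at 0.513 CPM against 73.8 in N2a and 30.8 in mESC, from 6 UMIs in all cells. Gm12610, which begins at the other side of Cdkn2a, was at 2.74 CPM against 207 and 57.1, and Cdkn2b had no UMI but was at or below 1.87 CPM in the other lines too. Farther on, Elavl2 was at 61.5 CPM and Gm12648 at 603 CPM. No other annotated gene overlapped Cdkn2a on its strand (0 genes). Loss of the DNA and silence of the genes cannot be told apart from these counts. Of 9 tested genes of the cell cycle inhibitor and p53 list, which includes Mtap, 2 were higher and 1 lower. The shares over all tested genes were 5.30% and 4.23%. Cdkn2c was higher (63.1 CPM, ratio 7.94), and Cdkn1a (121 CPM), Trp53 (227 CPM) and Mdm2 (104 CPM) were not called in either direction.

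**Figure D4:**
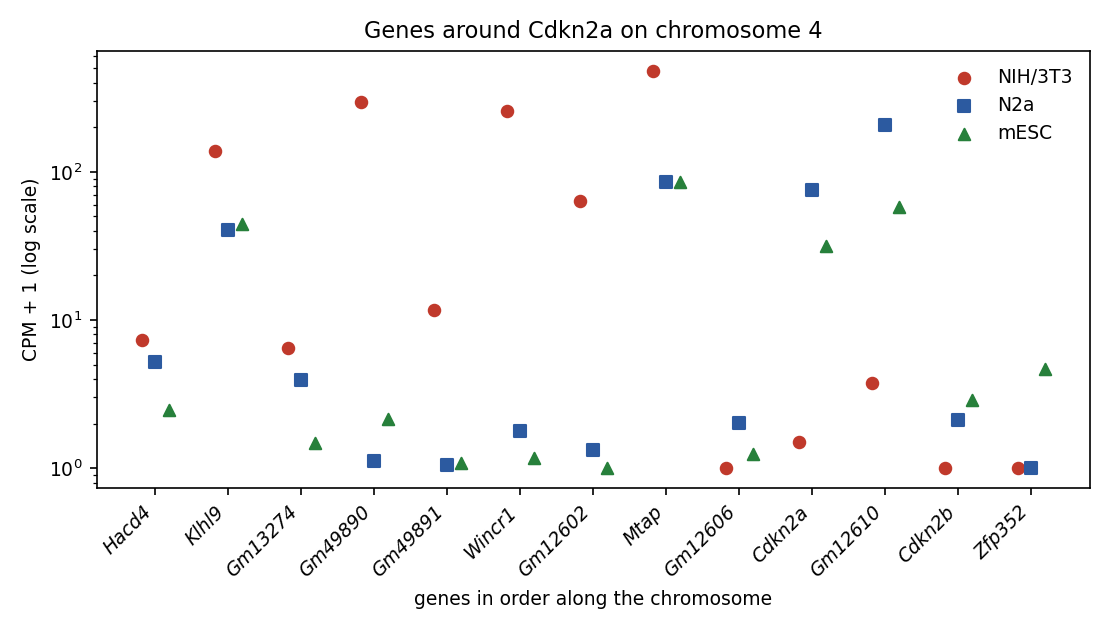
Levels of the genes with at least 1 CPM in any line around Cdkn2a on chromosome 4, in chromosome order, as CPM + 1 on a log axis. From Gm49890 to Mtap the NIH/3T3 values (red circles) lie above both other lines, and at Cdkn2a and Gm12610 they drop to 0.513 and 2.74 CPM while N2a (blue squares) is at 73.8 and 207.

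Other stretches of neighbouring genes were high or low together. Over windows of 10 consecutive tested genes, the median log2 ratio to the mean of the other lines had a median of -0.12 and a 99th percentile of 1.25 over 11149 windows. Windows were ranked by the same levels that gave the 4-fold calls, so the counts of called genes in them follow in part from the ranking. Over all tested genes, 5.30% were higher and 4.23% lower. The highest window, on chromosome 15 (chr15:31224460-33595276), held 6 higher genes: Sema5a, Dap, a death-associated protein (413 CPM, ratio 75.7), Sdc2, the heparan sulfate proteoglycan syndecan 2 (235 CPM, ratio 20.4), Cpq, Snhg18 and Gm32618. In the same window, Marchf6 was at 135 CPM against 172 in N2a and Cct5 at 518 CPM against 394. The second, on chromosome 6 (chr6:17065144-18848534), held Tes (228 CPM), Cav2, Cav1 and Met beside Capza2, which was at 226 CPM against 277 and 256. Asz1 and Cftr, also in this chromosome 6 window, were at 0.598 CPM and 0.171 CPM, against 259 and 74.5 in N2a and 1.87 and 1.46 in mESC. The fifth (chr5:88912695-91283840) held the chemokine Cxcl5 (36.5 CPM) and the growth factor Ereg (20.7 CPM).

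The lowest window, on chromosome 17 (chr17:48178058-52140622), had a median log2 ratio of -4.77, the value it was ranked by. Beside 4.23% of all tested genes, 4 of its 10 genes were lower than in both other lines. These were Rftn1 (0.513 CPM against 91.6 in N2a and 39.8 in mESC), Plcl2 (0.598 CPM against 138 and 16.3), the germ cell gene Dazl (0.0855 CPM against 4.07 and 129) and the chromatin organiser Satb1 (0.256 CPM against 83.0 in N2a, and 11.9 times lower than in mESC). Daam2 (0.684 CPM) and Kif6 (0.256 CPM) were near 0 in mESC as well, at 0.812 and 1.06 CPM, and were high in N2a alone. Tbc1d5, next to Satb1, was at 225 CPM. In the next, on chromosome 7 (chr7:105402197-108774528), 2 of the 10 genes were lower, Ppfibp2 (0.855 CPM against 225 in N2a and 18.4 in mESC) and Ric3 (0.684 CPM against 45.9 and 14.2). Syt9 and Lmo1, also under 1 CPM, were each high in a single other line, at 126 CPM in mESC and 121 CPM in N2a. Eif3f was at 222 CPM against 205 and 180. Over whole chromosomes, the median log2 ratio was lowest on chromosomes 8 (-0.57, 629 genes) and 6 (-0.55, 573 genes) and highest on chromosomes 19 (0.38, 384 genes) and 12 (0.29, 425 genes). Of the sex-linked genes, Xist was at 0.855 CPM against 366 in N2a, and of the Y-linked genes Ddx3y was at 5.56 CPM and Eif2s3y had no UMI, against 85.1 and 64.9 CPM in mESC.

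To put the cells on equal depth, 1000 UMIs were drawn from each without replacement, and variation among cells was measured on these thinned counts. The ratio of the variance to the mean over cells, which is near 1 when only counting varies, was 1.03 at the median of the 4680 genes with a mean of at least 0.05 UMIs. It was at least 1.5 for 28 genes (0.598%), against 30 of 4619 genes in N2a and 62 of 4450 in mESC. The number depends on the depth chosen, and was 66 at 2000 UMIs per cell. For the same relative spread, the ratio is also larger for a gene with a higher mean, so ratios at unlike levels are not directly comparable. Of the 28 genes, 12 were at least 1.5 in all 3 lines. With the single highest cell of each gene left out, 23 of the 28 stayed at or above 1.5. The exceptions included Mdm2, whose ratio of 2.45 came to 1.10 without 1 cell that held 19 of its thinned UMIs, and Mpp7, which went from 1.51 to 1.04 in the same way.

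**Figure D5:**
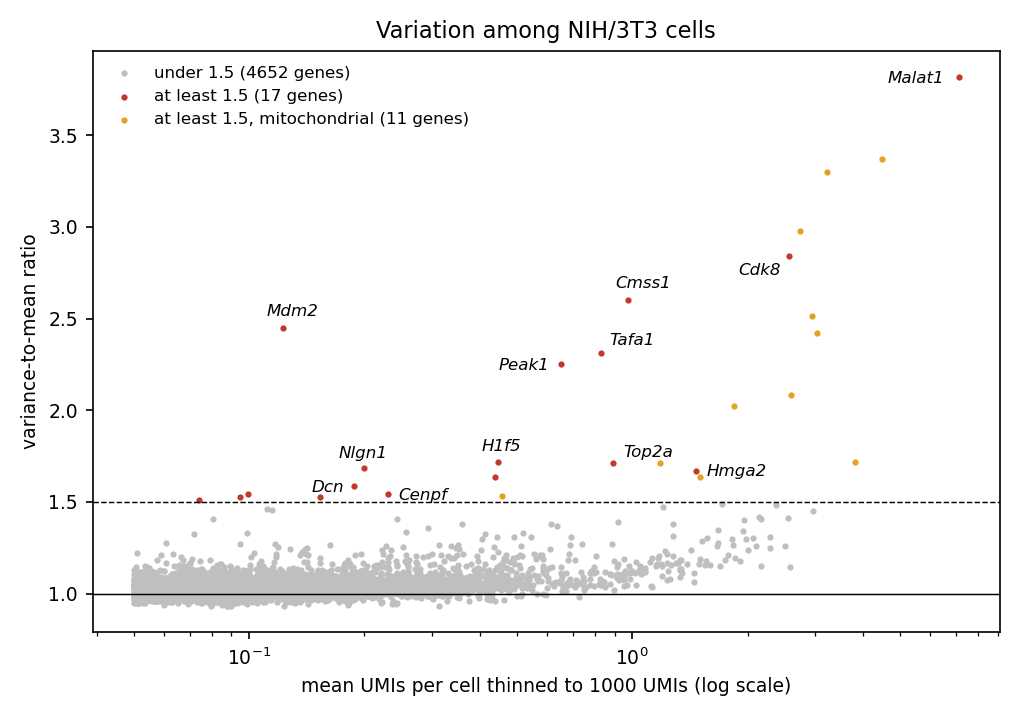
Variance-to-mean ratio against mean UMIs per gene (log axis) over 2037 NIH/3T3 cells thinned to 1000 UMIs. The solid line at 1 is counting error alone and the dashed line marks 1.5. Malat1 has the highest ratio at 3.82, 11 mitochondrial genes are shown in orange, and the Mdm2 point rests on a single cell.

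Malat1 led with a ratio of 3.82 (1.65 in N2a and 2.30 in mESC), and its level per 10000 UMIs of a cell ran from 25.6 at the 10th percentile to 122 at the 90th. Of the 28 genes, 11 were mitochondrial, with ratios up to 3.37 for mt-Atp6, and their median share per cell is given above. Cdk8 (2.84) and Cmss1 (2.60), which were above 1.5 in all lines, had 6.16 and 7.35 in N2a. The replication-coupled histone genes H1f5 (1.72) and H4c4 (1.63) had no thinned UMI in 72.6% and 72.2% of cells. Top2a, the topoisomerase that untangles replicated chromosomes, was at 1.71, and the kinetochore gene Cenpf at 1.54.

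Cell cycle genes were spread unevenly over the cells. None of the 26 S phase and 32 G2/M genes was called in either direction (0 genes). Of all tested genes, 5.30% were higher and 4.23% lower. The G2/M list had 6.31 UMIs per thinned cell on average, with a 10th percentile of 1, a median of 5 and a 90th percentile of 14, and a variance-to-mean ratio of 4.31, against 2.81 in N2a and 1.94 in mESC. At least 10 of the 1000 UMIs were of this list in 522 cells (25.6%). The S phase list had a mean of 3.49 UMIs and a ratio of 1.46, so its spread was closer to counting error. Mki67 was at 665 CPM against 393 and 408.

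Of the 28 variable genes, 5 were also among those higher in NIH/3T3: Tafa1, Nlgn1, Hmga2, Dcn and Cp. The share was 5.30% over all genes tested between lines, which did not need a mean of at least 0.05 UMIs. Tafa1, a secreted chemokine-like protein, had a ratio of 2.31, with no UMI in 31.5% of cells and up to 82 in a cell. Its ratio was 1.08 in N2a, but its level there was 31.0 CPM against 884 CPM in NIH/3T3, so these ratios are not directly comparable. Nlgn1, the synaptic adhesion protein neuroligin 1, had a ratio of 1.68, no UMI in 73.9% of cells and 49.7% of its UMIs in the top 5% of cells. Dcn had a ratio of 1.59, no UMI in 66.6% of cells and 43.0% of its UMIs in the top 5%. Cp, the copper protein ceruloplasmin, had 1.55, or 1.36 without its highest cell. Hmga2 was present in most cells, with no UMI in 8.54%, and had a ratio of 1.67. Hmga2 was thus detected in nearly all cells, and Nlgn1 and Dcn in a minority.

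To see what went with Dcn, a fibroblast gene chosen here after its values were seen, the cells were divided by the presence of a Dcn UMI after thinning. Such a UMI was present in 277 cells (13.6%) and absent in 1760, and Dcn summed over each set was at 788 and 122 CPM. The cells with it came from all 32 wells, at 5.56% to 22.2% of a well's cells, with median depths of 5253 UMIs against 4780 and mitochondrial shares of 3.08% against 2.38%. The part of depth and mitochondrial share in the values that follow was not tested. The median log2 ratio between the 2 sets of cells was 0.01 over 5047 genes with at least 50 CPM in either, and 6 genes were at least 4-fold higher and 10 at least 4-fold lower with Dcn. These are descriptions without a test, since the cells are those of 1 library. In what follows, cells with and without Dcn are these sets after thinning. Those without it include cells with Dcn UMIs before thinning, 1216 UMIs in all.

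The chemokines Ccl2 and Ccl7 had the largest ratios. Ccl2 was at 190 CPM in cells with Dcn and 40.4 CPM in cells without, and Ccl7 at 296 and 64.6 CPM. Igfbp4, which binds insulin-like growth factors, was at 181 and 39.9 CPM, and Stra6, the receptor that takes up retinol, at 151 and 39.7 CPM. The proliferin Prl2c3 (113 and 28.4 CPM), the receptor kinase Alk (197 and 54.2 CPM), the noncoding RNA 4930467D21Rik (344 and 87.0 CPM) and the protocadherin Pcdh7 (89.9 and 21.2 CPM) shared this direction. Nlgn1 (573 and 174 CPM) and Tafa1 (1862 and 715 CPM) did so as well.

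Other genes were lower in the cells with a Dcn UMI after thinning. The Wnt5a receptors Ror2 (8.12 CPM with Dcn and 58.5 without) and Ror1 (16.8 and 99.8 CPM) were among the lowest, as was Fgfbp1, a carrier of fibroblast growth factors (8.12 and 58.9 CPM). The matrix inhibitor Timp3 was at 79.5 CPM with Dcn and 328 without, the muscle and vascular factor Mef2c at 39.4 and 154 CPM, the deacetylase Hdac9 at 38.9 and 158 CPM, and Slit2, a guidance ligand, at 12.8 and 54.3 CPM. A stretch of 7 genes on chromosome 14 from Gpc6 to Uggt2, which includes Dnajc3, summed to 37.7 CPM with Dcn, from 65 UMIs, and 192 CPM without. Over all cells it was at 169 CPM, and 53.9% of them had no UMI of it. At this level and depth many cells hold none by counting alone, and how many lack its transcripts was not tested.

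The identity of the cells was shared by both sets. Col1a2 was at 448 CPM with Dcn and 463 without, Prrx1 at 729 and 604, Sema5a at 1015 and 898, Cav1 at 181 and 242, and Il1rl1 at 936 and 537. The summed G2/M list was at 6546 CPM with Dcn and 6766 without, and the S phase list at 3552 and 3539. The N2a and mESC markers summed to 13.3 and 23.2 CPM with Dcn and to 8.92 and 18.6 CPM without, near 0 beside 1406 and 6439 CPM in their own lines.

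Neighbouring genes also varied together in a few places. The measure was the covariance summed over all pairs of 10 consecutive genes, divided by their summed means, and had a median of 0.00932 and a 99th percentile of 0.143 over 9986 windows. It rises with the level of the genes, and sets of genes that are not neighbours were not scored. The part of position in the shared variation was therefore not tested. The largest value, 0.791, fell on the histone gene cluster of chromosome 13 (chr13:23737436-23924350), with H4c4 at 478 CPM, H1f4 at 251 CPM and H1f3 at 123 CPM. This cluster was second in N2a. The nuclear RNAs Malat1 and Neat1 (1180 CPM, against 148 and 73.4) gave 0.427 on chromosome 19, and a window of chromosome 10 with the ribosomal protein genes Rps26 and Rpl41 gave 0.417.

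The last of the 5 largest windows were an S100 cluster and a zinc finger cluster. The S100 window on chromosome 3 (chr3:90389745-94358437) gave 0.397 and held S100a4, S100a6 (1776 CPM against 738 in N2a), S100a11 (857 CPM against 32.7 in mESC) and S100a10 (781 CPM against 115 in N2a), calcium-binding proteins that partner with annexins and the cytoskeleton. The window on chromosome 4 (chr4:145130834-147601280) gave 0.326 and held Rex2 and a run of Zfp genes beside Platr16, with Zfp268 at 76.0 CPM and Zfp982 at 37.5 CPM, against 62.8 and 143 in mESC and under 5 CPM in N2a. These zinc finger genes are close copies of each other, so their separate levels are uncertain.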

How the data were processed

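RNA of 3 mouse lines was barcoded and sequenced in 1 CapSeq library. The authors split reads by BC1, trimmed the template-switching sequence with Cutadapt and counted with STARsolo on GRCm39 with GENCODE M30; they deposited raw UMI counts per gene and barcode, with no cell filter. The counting mode for introns and overlapping genes is not given in the sources used here, so levels may include intronic UMIs. Matrix depth was 13505027 UMIs for NIH/3T3, 20662884 for N2a and 13875356 for mESC.

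From these counts, UMIs were summed over cells, scaled to CPM and compared between lines with a pseudocount of 1 and a 4-fold limit. Thinning used seed 1. Positions and exon lengths came from GENCODE M39 (GRCm39), which held 32953 of 33565 gene identifiers. Promoters came from RefSeq (GRCm38.p6). Named genes were the 5 identity genes, the 20 most abundant, 20 most enriched, 10 most depleted and 20 most variable, list members and genes of the leading windows; Dcn-associated genes, the other variable genes, list members beyond 4 per list, and Gm12648 and Elavl2 were chosen after their values were seen. Of the genes these rules name, a few are not reported here. The members and lists were chosen with earlier results of these data known. The steps were tested on simulated data. Python 3.11.15, numpy 2.4.6, scipy 1.17.1 and pandas 2.3.3 were used.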

Additional observations from a re-analysis of the deposited data

How the results depend on the processing

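The number of cells stayed within 1.5 times 2037 under every filter, from 1775 with at least 2000 UMIs to 2172 with at least 500. The median UMIs per cell left its interval of 4671 to 5073 with at least 500 UMIs (4585.5), with at least 2000 UMIs (5426) and without the 5% of cells with the most UMIs (4643). That last setting, used in place of a doublet caller, gave 599 higher genes (590 shared) and 482 lower genes (469 shared). The counts of higher and lower genes moved by over 1.5 times with a minimum of 50 CPM (317 higher and 243 lower), by its construction, since fewer genes were tested, and the lower count fell to 201 with a pseudocount of 5. Subtracting a background profile gave 655 higher genes, 568 of them shared with the 602, and 511 lower genes, 418 shared with the 481. Thinning to 2000 UMIs gave 66 genes with a variance-to-mean ratio of at least 1.5, and no thinning, which raises the depth and also leaves it unequal between cells, gave 4545; the cause was not tested. Leaving out the highest cell of each gene, an alternative chosen after seeing the data, gave 23. The largest shared variation of neighbouring genes was 1.45 in windows of 20 genes and 1.67 after thinning to 2000 UMIs. No paired analysis was possible because each line is 1 sample. Depth limits genes below about 0.256 CPM, the level of 3 UMIs.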
